A study of Homo sapiens with 20 samples.

Results

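Probes for RefSeq non-coding RNAs whose level differed at least 4-fold between the highest and the lowest of 5 culture conditions of HepaRG cells were described. HepaRG is a human hepatoma line whose progenitors differentiate in culture into hepatocyte-like and biliary-like cells. A probe belonged to this set if its accession began with NR_, if each of the 4 arrays of some condition measured it well above background, and if the highest and lowest condition means lay 2 or more apart on the log2 scale. Of 1581 NR_ probes among the 42405 probes of the array, 859 passed the background criterion, and 73 of these, or 8.50%, also met the size criterion. The same size criterion was met by 1909 of the 17770 probes for protein-coding RefSeq transcripts (NM_) that passed the background criterion. The condition means chose the 73 probes, so that their differences between conditions are descriptions and carry no test.

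Total RNA was labelled with Cy3 and hybridised to 20 one-color arrays, 4 per condition, from what the design states were 4 independent experiments. Cells of the D4 and D15 groups were collected 4 and 15 days after seeding and had received no DMSO. The D30 - DMSO cells were kept for 30 days without DMSO, and the D30 + DMSO cells received 2% DMSO from day 15 to day 30. The D34 +/- DMSO cells were D30 + DMSO cultures from which DMSO was withdrawn for 4 days, collected on day 34. No other group was collected on day 34, so that DMSO removal and 4 more days in culture cannot be told apart. All groups shared a medium with serum, insulin and hydrocortisone, and all came from the same cell line, so that the arrays show the spread between cultures of 1 line and not between donors.

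Long non-coding RNAs are transcripts that are spliced and polyadenylated much like messenger RNAs but are not known to be translated. Some act on chromatin or on transcription of a neighbouring gene, some bind microRNAs or proteins in the cytoplasm, and others are host transcripts from which microRNAs or small nucleolar RNAs are cut. Transcribed pseudogenes are copies of coding genes that have lost the reading frame. Small nucleolar and Cajal body RNAs guide the modification of ribosomal and spliceosomal RNAs. In liver, non-coding RNAs are known both as markers of hepatocyte differentiation and as transcripts reactivated in hepatoma.

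Of the 73 probes, 61 matched a gene in the current RefSeq table, and these stood for 59 genes, since URAHP and TRHDE-AS1 had 2 probes each. RefSeq classed 37 of the 61 as long non-coding RNAs, 19 as transcribed pseudogenes, 3 as small nucleolar RNAs (SNORA28, SNORA59B and SNORA74A) and 1 as the small Cajal body RNA SCARNA10. The remaining matched probe, for CCDC196, now belongs to a gene classed as protein-coding. The other 12 probes carry accessions without a match and are given by accession.

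Of the genes, 2 hold a microRNA hairpin on the same strand, and their mature products are shown because the array measured the host transcript and not these products. H19 holds miR-675 and MIR503HG holds miR-503. The sequences are those of RefSeq on GRCh38.p14, with the seed (bases 2 to 8) in capitals, and the 4 seeds differ from each other.
hsa-miR-675-5p, chr11:1996800-1996822, minus strand: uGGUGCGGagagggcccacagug
hsa-miR-675-3p, chr11:1996768-1996787, minus strand: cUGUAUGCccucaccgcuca
hsa-miR-503-5p, chrX:134546371-134546393, minus strand: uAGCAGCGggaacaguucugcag
hsa-miR-503-3p, chrX:134546331-134546353, minus strand: gGGGUAUUguuuccgcugccagg

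Promoters are shown for 3 genes at which the results below turn, FAM99A and H19 with low levels in DMSO and LINC00261 with high levels in DMSO. Each holds 250 bases before and 50 bases after the transcript start, 5′ to 3′ along the strand of the gene, from RefSeq on GRCh38.p14. Capitals mark the match found to any of 7 motifs searched on both strands, the HNF1 consensus and 6 whose letters are given with their shares.
FAM99A promoter, chr11:1665349-1665648, plus strand: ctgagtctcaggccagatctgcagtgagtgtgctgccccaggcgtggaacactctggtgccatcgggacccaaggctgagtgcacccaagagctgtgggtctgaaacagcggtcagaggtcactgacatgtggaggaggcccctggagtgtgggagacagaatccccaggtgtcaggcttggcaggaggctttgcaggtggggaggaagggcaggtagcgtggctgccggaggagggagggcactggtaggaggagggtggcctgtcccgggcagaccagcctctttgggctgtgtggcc
H19 promoter, chr11:2001217-2001516, minus strand: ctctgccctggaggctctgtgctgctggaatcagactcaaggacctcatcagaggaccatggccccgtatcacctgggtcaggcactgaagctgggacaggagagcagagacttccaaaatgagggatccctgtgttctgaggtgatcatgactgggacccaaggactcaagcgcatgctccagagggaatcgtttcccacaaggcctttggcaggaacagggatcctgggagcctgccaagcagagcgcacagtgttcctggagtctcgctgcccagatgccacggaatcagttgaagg
LINC00261 promoter, chr20:22578593-22578892, minus strand: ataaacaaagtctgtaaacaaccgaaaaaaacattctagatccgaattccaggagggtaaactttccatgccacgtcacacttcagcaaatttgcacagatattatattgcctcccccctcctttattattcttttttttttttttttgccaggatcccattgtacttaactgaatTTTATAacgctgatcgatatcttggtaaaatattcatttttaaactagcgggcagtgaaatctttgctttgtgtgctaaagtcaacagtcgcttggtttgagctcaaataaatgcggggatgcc

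None of the 7 motifs was found in the FAM99A and H19 windows, and the LINC00261 window held the TATAAA letters on the opposite strand, 74 to 69 bases before the start. A promoter was listed for 31 of the 59 genes. The TTTGAA letters of the cell cycle homology region were in 8 of these 31 (25.8%) and in 15.4% of all 27305 promoters of the table, and the AP-1 motif TGANTCA was in 3 (9.68%) against 7.76%. The TATA box TATAAA was in 2 of the 31 (6.45%) against 12.0%, and the HNF4 motif CAAAGTCCA in 1 (3.23%) against 0.359%. The other 3 motifs were in 0 of the 31. Of all promoters, 0.0989% held the HNF1 motif, 0.128% the C/EBP motif TTGCGCAA and 3.18% the E2F motif TTCCCGCC.

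Levels below are log2 signals relative to the 75th percentile of the array, which is 0. The scaled signal was set to at least 1, which puts the lowest possible level at -9.14. Values are means ± SD over n = 4 arrays unless stated otherwise. Where no array of a condition was well above background, a fold difference is given as "at least", the dim side being set to the weakest signal that still counted as above background on each array. Differences over all probes were tested with limma, and a probe was called when it differed more than 2-fold with an adjusted p (Benjamini-Hochberg) below 0.005.

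The 20 arrays lay on 4 slides, and slide 4, which was scanned in a second session, held replicate 4 of each condition and replicate 3 of D15 and D30 + DMSO. Deviations from the condition means correlated with a median r of 0.374 between arrays of the same slide (44 pairs) and of -0.172 between arrays of different slides (116 pairs), across probes. On each array 61.1% to 74.2% of the spots were well above background. The labels call the cells hepatic stem cells. The 8 hepatocyte genes examined, among them ALB and CYP3A4, were well above background on every array, as were the biliary cytokeratins KRT7 and KRT19. The biliary and progenitor factor SOX9 was well above background on all arrays as well, whereas the progenitor marker EPCAM, the biliary chloride channel CFTR and the stellate cell receptor PDGFRB were well above background on 0 arrays. Probes for PTPRC, CD68, CD14, CDH5 and DES, which mark blood, macrophage, endothelial and stellate cells, were well above background on all arrays. PECAM1, VWF, LRAT and PROM1 were well above background on some arrays only.

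Most of the 73 probes were lowest in the progenitors. The lowest mean was at D4 for 52, at D30 + DMSO for 18, at D30 - DMSO for 2, at D15 for 1 and at D34 +/- DMSO for 0. The highest mean was at D30 + DMSO for 26, at D34 +/- DMSO for 17, at D30 - DMSO for 14, at D4 for 12 and at D15 for 4. The most frequent profile, highest at D30 + DMSO and lowest at D4, was that of 25 probes. Among coding probes of the same size criterion, 36.0% were highest at D4 against 16.4% of the non-coding probes, and 47.7% were lowest at D4 against 71.2%. Those lowest at D30 + DMSO made up 44.4% of the coding and 24.7% of the non-coding probes.

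**Figure D1:**
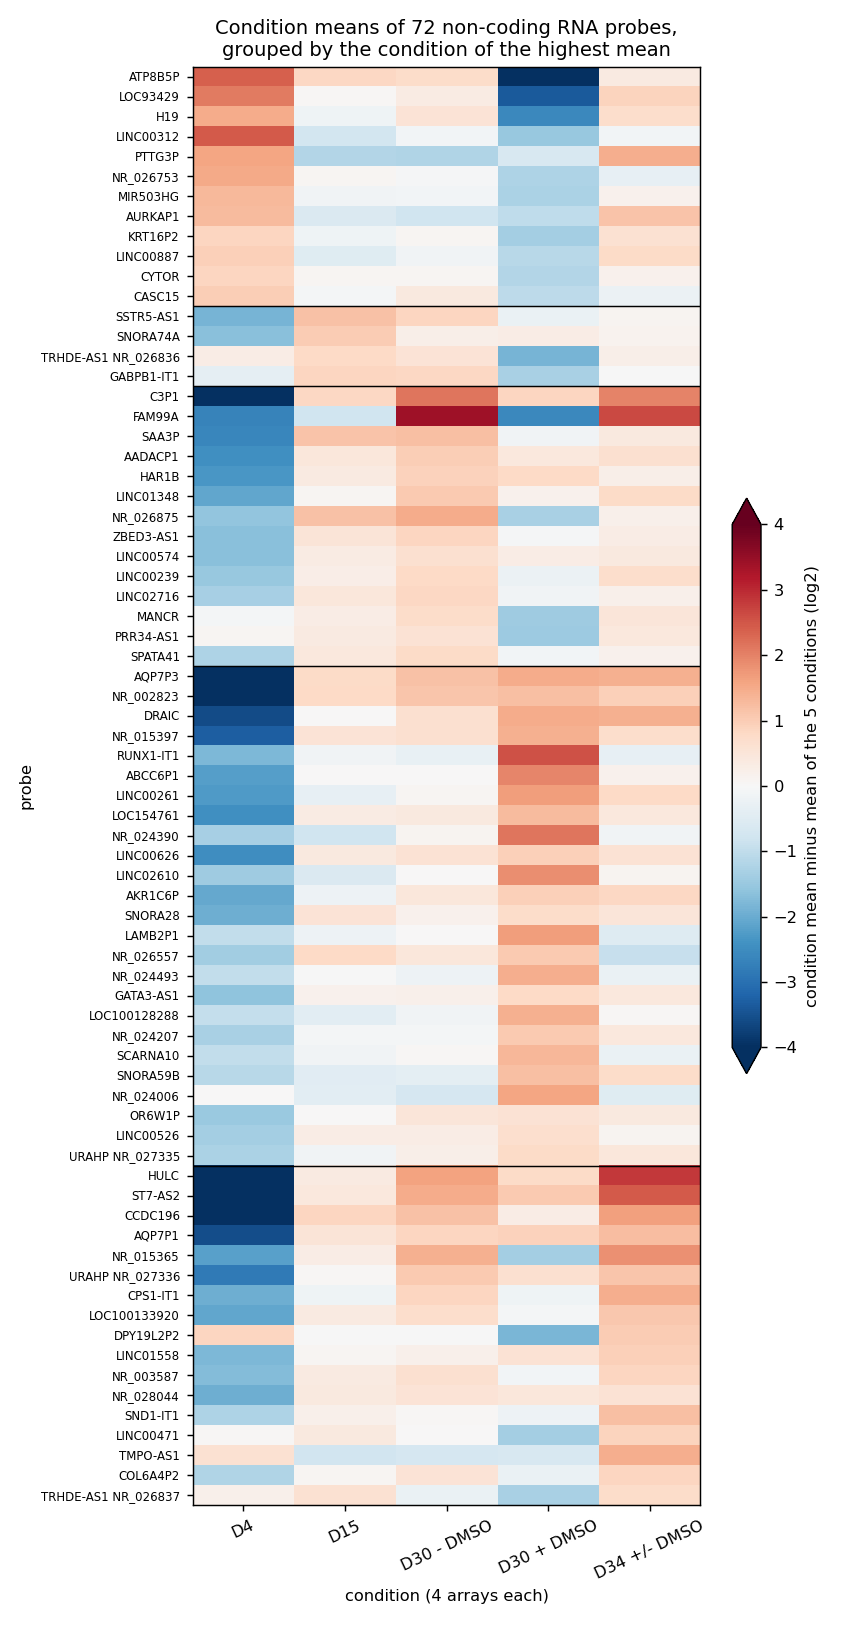
Condition means of 72 of the non-coding RNA probes, one row each, as differences from the mean of the row over the 5 conditions (log2, blue lower and red higher, colours saturated beyond 4). Rows are grouped by the condition with the highest mean, from 12 rows at D4 at the top to 17 rows at D34 +/- DMSO at the bottom, and 51 rows have their lowest mean at D4.

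Of the 73, 20 were well above background on all 20 arrays, and 23 had at least 1 condition without any such array. No array was well above background at D4 for 14 probes, at D30 + DMSO for 9, at D15 for 4, at D30 - DMSO for 1 and at D34 +/- DMSO for 0. The ranges ran from 2.00 for the second TRHDE-AS1 probe to 8.40 for HULC. Just inside the limit lay TRHDE-AS1 (NR_026837) at 2.00, SPATA41 at 2.01, and CASC15 and URAHP (NR_027335) both at 2.03. Just outside lay LOC153910 and LINC00685, both at 1.99, LINC00575 at 1.97 and C10orf88B at 1.96.

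Between the progenitors and D15, 58 of the 73 probes had a higher mean at D15 and 15 a lower one, with a median difference of 1.76 against 0.03 over all 26531 probes tested. With limma, 33 were called higher and 7 lower, beside 9.26% of all probes called in either direction (5.58% higher and 3.68% lower). Levels of the 4 arrays of each condition did not overlap for 41 probes that were higher and 10 that were lower, beside 24.0% of all probes. Nothing is read from these shares, because the same means chose the probes. All 40 called probes differed in the same direction on each of the 3 slides that held both conditions. The same arrays chose and called these probes, so that the shared direction is no separate support, here and in the comparisons below. With the slide as a block 52 were called, and 35 leaving out the arrays of slide 4. Over all probes 2961 and 2389 were called in these settings, against 2458.

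HULC, a long non-coding RNA named for its high level in liver cancer, had the widest range of the 73 probes. Its 4 arrays read -5.08, -5.39, -5.72 and -4.81 at D4 and 2.31, 0.20, -0.51 and 0.75 at D15. All D15 arrays lay above all D4 arrays, with a difference of condition means of 5.94. HULC then lay at 1.91 ± 1.12 at D30 - DMSO, 1.08 ± 1.35 at D30 + DMSO and 3.15 ± 1.02 at D34 +/- DMSO, and the last 3 conditions overlapped.

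C3P1, a pseudogene named for complement C3, was well above background on 1 of 4 arrays at D4 and on all arrays thereafter. The D4 arrays read -9.14, -9.14, -5.84 and -9.07, and the D15 arrays -0.98, -1.67, -2.41 and -1.60. The condition means differed by 6.63. ST7-AS2, an antisense RNA of the tumor suppressor candidate ST7, was well above background on 0 of the 4 D4 arrays. At D15 it read -1.19, -2.48, -3.61 and -3.56, at least 12.6-fold higher than at D4.

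AQP7P3, a pseudogene of the glycerol channel aquaporin 7, lay at -2.76 ± 0.51 at D4 and at 2.86 ± 0.28 at D15, and stayed between 3.29 and 3.60 in the means of the later conditions. Its 4 D15 arrays (2.79, 2.76, 2.63 and 3.28) were all above the highest D4 array, which read -2.27. AQP7P1 lay at -3.41 ± 0.22 at D4 and 0.66 ± 0.88 at D15, but a second AQP7P1 probe differed by 0.15 between these conditions and had a range of 0.61. NR_002823 was not well above background at D4 and was at least 18.7-fold higher at D15. CCDC196 was at least 12.2-fold and SSTR5-AS1 at least 6.85-fold higher at D15 than at D4, where neither was well above background on any array.

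LINC00261, which neighbours the gene of the endoderm factor FOXA2, read -1.80, -1.42, -1.64 and -1.66 at D4 and 0.19, 0.51, 0.11 and 0.38 at D15. The D15 arrays all lay above the D4 arrays. CPS1-IT1, from within the gene of the urea cycle enzyme CPS1, lay at -4.07 ± 0.41 at D4 and -2.28 ± 0.46 at D15 and was not called, although its arrays did not overlap.

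In all, 7 probes were called lower at D15. LINC00312 had the largest such difference, -3.17, from D4 arrays of -2.87, -1.01, -1.03 and -3.03 to D15 arrays of -4.44, -4.66, -5.77 and -5.76. PTTG3P, a pseudogene of the securin gene PTTG1, read -1.37, -2.33, -1.70 and -1.60 at D4 and -5.91, -4.18, -4.11 and -3.75 at D15. AURKAP1, a pseudogene of the mitotic kinase gene AURKA, read -0.22, -0.61, -0.54 and -0.42 at D4 and -2.31, -2.39, -2.33 and -2.12 at D15. In each of these 3 the D4 arrays were all above the D15 arrays. H19, TMPO-AS1, LINC00887 and CASC15 were the other 4 called. A second LINC00887 probe on the same accession, well above background on all arrays, differed by 0.05 between D4 and D15 and had a range of 0.54.

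**Figure D2:**
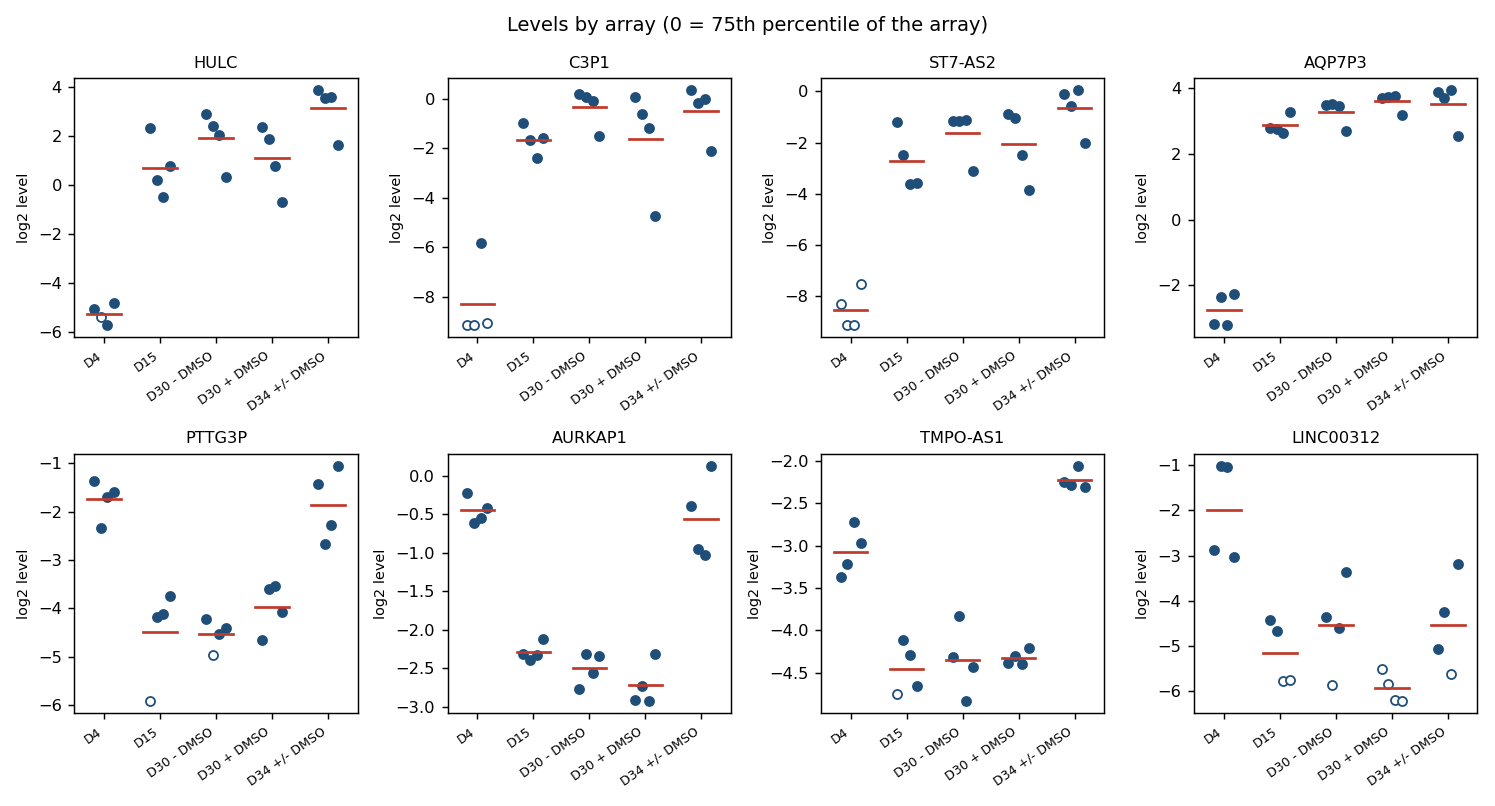
Log2 levels by array (0 is the 75th percentile of the array) of 8 probes in the 5 conditions; points are the 4 arrays, filled where well above background and open where not, and red bars are condition means. HULC, C3P1, ST7-AS2 and AQP7P3 are lowest at D4, and PTTG3P, AURKAP1, TMPO-AS1 and LINC00312 are higher at D4 than at D15.

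PTTG3P, AURKAP1 and TMPO-AS1 were again high after DMSO removal. PTTG3P lay at -4.53 ± 0.32 at D30 - DMSO, -3.97 ± 0.52 at D30 + DMSO and -1.86 ± 0.74 at D34 +/- DMSO, against -1.75 ± 0.41 at D4. AURKAP1 lay at -2.72 ± 0.29 at D30 + DMSO and -0.56 ± 0.54 at D34 +/- DMSO. TMPO-AS1, transcribed from the opposite strand at the start of the lamina-associated polypeptide gene TMPO, read -4.38, -4.30, -4.39 and -4.21 at D30 + DMSO and -2.24, -2.28, -2.06 and -2.31 at D34 +/- DMSO. In all 3 the D34 +/- DMSO arrays were above both D30 groups, and these were the 3 probes called for D34 +/- DMSO against D30 - DMSO, beside 1.49% of all probes in either direction and 1.29% higher.

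Genes of proliferating cells moved with these probes. The condition means of MKI67, TOP2A, CDK1 and CCNB1, all 4 examined, were higher at D4 and at D34 +/- DMSO than in the other 3 conditions. CDK1, for example, lay at 1.40 at D4, between -2.15 and -1.52 at D15 and in both D30 groups, and at 1.70 at D34 +/- DMSO. Their part in the levels of the 3 probes was not tested.

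From D15 to D30 without DMSO, 55 of the 73 probes had a higher mean and 18 a lower one, with a median difference of 0.27 against -0.02 over all probes. With limma, 0 of the 73 were called, beside 0.00377% of all probes, and 3 had an unadjusted p below 0.05. Levels did not overlap for 5 probes, beside 2.27% of all probes. The per-probe test named in the study's methods gave 0 calls after adjustment and 1 before it. The unadjusted counts have no share over all probes beside them, so that nothing is read from them.

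FAM99A, a long non-coding RNA gene on chromosome 11 that is known for its high level in liver, had the largest difference over this interval. The 4 D4 arrays were at the floor, and the D15 arrays read -8.34, -6.45, -9.14 and -5.19, none of them well above background. The D30 - DMSO arrays read -3.04, -3.27, -3.50 and -2.52, all well above background and at least 7.10-fold higher than at D15. Its neighbour FAM99B was not among the 73, as it was well above background on 2 arrays at D30 - DMSO and on 0 arrays of the other conditions, with means of -5.03 at D30 - DMSO and -8.06 at D30 + DMSO.

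With DMSO (D30 + DMSO against D30 - DMSO), 31 of the 73 probes had a higher mean and 42 a lower one, with a median difference of -0.40 against 0.04 over all probes. The limma fit called 8 higher and 12 lower, beside 1.68% of all probes called higher and 4.14% lower. Levels did not overlap for 13 probes that were higher and 19 that were lower, beside 25.3% of all probes. All 20 called probes differed in the same direction on both slides that held the 2 conditions, 23 were called with the slide as a block, and 12 without the arrays of slide 4. Over all probes 1912 and 1029 were called in these settings, against 1543. The split of calls depended on the background correction, since with normexp 7 were called higher and 3 lower, beside 743 over all probes in either direction.

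FAM99A had the largest difference. Its D30 + DMSO arrays read -8.77, -9.14, -9.14 and -9.14, none of them well above background, which puts the level with DMSO at least 9.40-fold below that without. In the D34 +/- DMSO arrays it read -3.50, -3.61, -4.14 and -4.06, at least 5.60-fold higher than with DMSO. FAM99A was thus measurable on all 8 arrays of D30 - DMSO and D34 +/- DMSO and on 0 of the 12 others.

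ATP8B5P, a pseudogene of the flippase family, read -3.26, -3.35, -3.35 and -3.53 at D30 - DMSO and -8.17, -7.20, -9.14 and -9.14 at D30 + DMSO, where it was not well above background. The difference was at least 7.68-fold, and the level at D34 +/- DMSO was at least 6.01-fold above that with DMSO. A second ATP8B5P probe, on another accession, had a range of 0.45 over the 5 conditions. LOC93429 read -3.55, -3.18, -3.08 and -2.93 at D30 - DMSO and -7.23, -7.96, -7.09 and -5.23 at D30 + DMSO, none of the latter well above background, a difference of at least 7.70-fold. At D34 +/- DMSO it read -3.11, -3.01, -2.95 and -1.37, at least 11.4-fold above the level with DMSO.

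H19, an imprinted RNA that is abundant in fetal liver, was well above background on all 20 arrays. It read 1.12, 0.74, 0.00 and 1.49 at D4, -0.98, -0.53, -0.70 and -1.08 at D15, and -0.66, -0.24, -0.23 and 0.65 at D30 - DMSO. With DMSO it read -3.03, -2.53, -2.83 and -4.57, below every array of the other conditions, and after removal -0.18, -0.19, -0.22 and 0.70. The condition means differed by -3.12 on DMSO addition and by 3.27 on removal, 2 differences that share the D30 + DMSO arrays. On slide 3 the DMSO difference was -2.12 and on slide 4 it was -4.35. MIR503HG, the other microRNA host, lay at -0.99 ± 0.57 at D4, -2.41 ± 0.31 at D30 - DMSO, -3.55 ± 0.44 at D30 + DMSO and -2.13 ± 0.55 at D34 +/- DMSO and was not called in any of these comparisons.

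Other probes with low levels in DMSO included CYTOR, a cytoplasmic RNA described in cancer cells, at 2.89 ± 0.12 without and 1.65 ± 0.21 with DMSO, and CASC15 at -1.89 ± 0.41 without and -3.34 ± 0.22 with DMSO. NR_026875 read -0.39, -0.68, -0.83 and -1.55 without and -2.64, -3.33, -3.60 and -5.04 with DMSO. MANCR, SSTR5-AS1, PRR34-AS1, NR_015365 and the TRHDE-AS1 probe NR_026836 were also called lower.

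Among the probes with higher levels in DMSO, LINC00261 read 0.94, 0.87, 0.96 and 0.08 at D30 - DMSO and 2.56, 2.51, 2.28 and 1.88 at D30 + DMSO. The groups did not overlap, and the condition means differed by 1.60. After removal LINC00261 lay at 1.43 ± 0.38.

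ABCC6P1, a pseudogene of the transporter gene ABCC6, read 0.91, 0.83, 0.77 and -0.20 without and 2.85, 2.54, 2.51 and 2.15 with DMSO. LINC02610 read 0.39, 0.24, 0.09 and -0.90 without and 2.40, 2.21, 1.25 and 1.35 with DMSO. Both groups were again apart, and after removal the levels were 0.72 ± 0.57 for ABCC6P1 and 0.04 ± 0.79 for LINC02610, the latter over 3 arrays because all spots of the probe were marked as outliers on the other. LAMB2P1, LOC100128288, NR_024493 and SNORA59B were also called higher.

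RUNX1-IT1 had the largest positive difference of means, 2.83, but was not called. It was well above background on the 4 D30 + DMSO arrays, which read -3.13, -3.08, -3.39 and -3.79, on 1 array at D30 - DMSO, on 2 at D34 +/- DMSO and on 0 at D4 and D15. NR_024390 and NR_024006 followed with means of -3.96 ± 0.30 and -2.94 ± 0.18 with DMSO against -5.98 ± 0.86 and -5.17 ± 0.45 without, and neither was called.

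**Figure D3:**
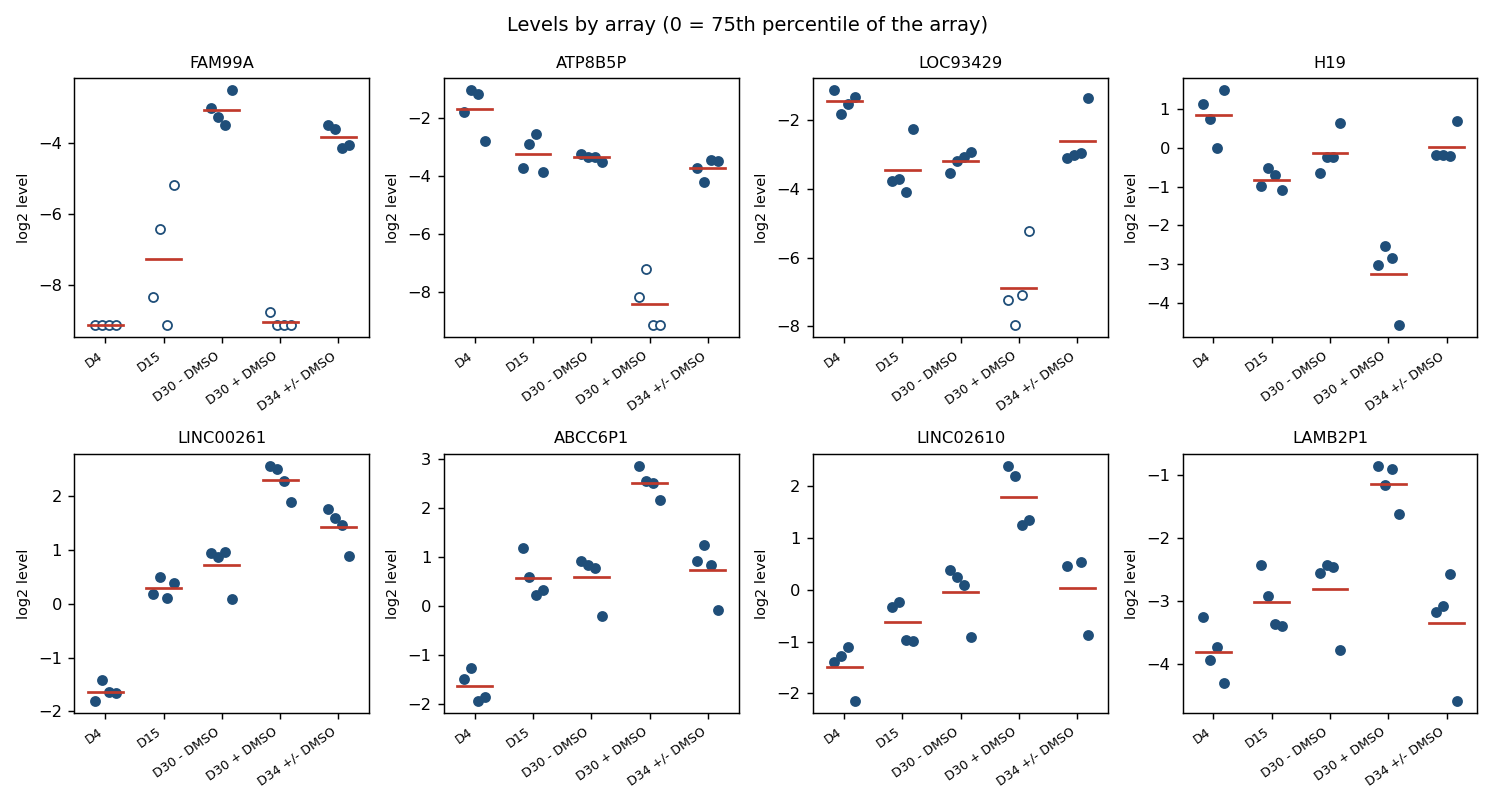
Log2 levels by array (0 is the 75th percentile of the array) of 8 probes in the 5 conditions; points are the 4 arrays, filled where well above background and open where not, and red bars are condition means. FAM99A, ATP8B5P and LOC93429 have 0 filled points at D30 + DMSO, H19 is lowest there, and LINC00261, ABCC6P1, LINC02610 and LAMB2P1 are highest there.

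After DMSO removal (D34 +/- DMSO against D30 + DMSO), 45 probes had a higher mean and 28 a lower one, with a median difference of 0.40 against -0.06 over all probes. The limma fit called 16 higher and 5 lower, beside 4.93% of all probes called higher and 2.04% lower. The lower calls were 3 without any 1 of D30 - DMSO replicate 3, D30 + DMSO replicates 1 and 2, and D34 +/- DMSO replicates 1 and 4, and 9 with the replicate block. Levels did not overlap for 22 probes that were higher and 11 that were lower, beside 24.0% of all probes. All 21 called probes kept their direction on both slides that held these conditions, and 13 were called without the arrays of slide 4. With the slide as a block 16 were called higher and 12 lower, and with normexp 5 were called higher and 4 lower. Over all probes 1291 were called without slide 4, 2207 with the slide as a block and 973 with normexp, against 1848. This comparison shares the D30 + DMSO arrays with that for DMSO addition, so that the 2 are not independent. For FAM99A, ATP8B5P and LOC93429, not well above background with DMSO, the bounds given for addition and removal are all that was measured. For probes that were higher in DMSO the differences of addition and removal were 1.93 and -1.79 for ABCC6P1, 1.67 and -2.21 for LAMB2P1, and 1.60 and -0.88 for LINC00261, the last of which was not called on removal.

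NR_015365 and NR_026557 were also among the largest differences on removal. NR_015365 was not well above background on any D30 + DMSO array and read -3.93, -2.57, -4.15 and -4.29 at D34 +/- DMSO, at least 4.36-fold higher. NR_026557 lay at -3.24 ± 0.56 with DMSO and -5.22 ± 1.75 after removal, and its arrays overlapped.

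Coding genes that overlap a non-coding gene, share its name or lie within 10 kb of it were measured by their own NM_ probes, which the choice of the 73 did not use. Where a partner had several NM_ probes, only that with the highest mean over all arrays was used, and the others were not examined. Such partners were found for 39 of the 59 genes, and 30 partners of 28 of these could be tested. Each was tested with limma over all 26531 probes. From D4 to D15, 4 partners rose and 5 fell, beside 9.26% of all probes called. With DMSO 1 rose and 1 fell, beside 5.82%, and on removal 3 rose and 1 fell, beside 6.97%.

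The gene of the insulin growth factor-like protein IGFL2, which overlaps LOC93429 on the same strand, had the largest change with DMSO. IGFL2 lay at -2.99 ± 0.71 at D30 - DMSO, at -7.45 ± 1.12 at D30 + DMSO and at -2.92 ± 0.52 at D34 +/- DMSO. It was not well above background on any D30 + DMSO array and was at least 9.18-fold lower with DMSO (limma adjusted p = 1.75e-06) and at least 9.66-fold higher after removal (limma adjusted p = 9.54e-07). TMPO, which starts 653 bases from TMPO-AS1 on the other strand, fell by 1.57 from D4 to D15 (SE 0.18, limma adjusted p = 2.54e-06) and rose by 1.55 on removal (SE 0.18, limma adjusted p = 5.02e-06). With DMSO, TMPO differed by 0.20 (limma adjusted p = 0.538) and TMPO-AS1 by 0.03.

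ZBED3 rose by 1.70 (SE 0.15, limma adjusted p = 7.38e-08) and the phosphodiesterase gene PDE8B by 2.15 (SE 0.28, limma adjusted p = 1.27e-05) from D4 to D15, beside a difference of 2.19 for ZBED3-AS1, which overlaps both. CPS1 rose by 4.18 (SE 0.50, limma adjusted p = 3.94e-06), beside 1.79 for CPS1-IT1. LMCD1, which overlaps LINC00312 on the same strand, fell by 2.28 (SE 0.34, limma adjusted p = 4.9e-05), beside -3.17 for LINC00312.

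The following partners were not called where the non-coding RNA differed, or were called where it was not called. FOXA2 differed by 0.16 from D4 to D15 (limma adjusted p = 0.501) and by 0.58 with DMSO (SE 0.14, limma adjusted p = 0.00721), which did not pass, beside 1.93 and 1.60 for LINC00261. RUNX1 fell by 1.20 from D4 to D15 (limma adjusted p = 0.000938), where RUNX1-IT1 was not well above background in either condition. GABPB1 fell by 1.22 in the same comparison (limma adjusted p = 3.64e-05), beside a difference of 1.20 for GABPB1-IT1, which was not called. MRPL23, which overlaps the annotated region of H19, differed by -0.42 with DMSO (limma adjusted p = 0.0456), beside -3.12 for H19. On removal MRPL23 differed by 0.77 (SE 0.14, limma adjusted p = 0.000635), beside 3.27 for H19. This was in the direction of H19 but less than the 2-fold needed for a call. ST7 differed by 0.33 from D4 to D15 (limma adjusted p = 0.463), beside at least 12.6-fold for ST7-AS2. SGK3 and RAB3GAP2 both differed by 0.19 from D4 to D15 and were not called, beside -2.74 for PTTG3P and -1.84 for AURKAP1. RUSC2 and UNC13B differed by -0.08 and 0.45 with DMSO and were not called, beside at least 7.68-fold lower levels of ATP8B5P. HES6 differed by 0.01 and CCDC71 by -0.21 with DMSO, not called, beside 1.85 for LINC02610 and 1.67 for LAMB2P1. The differences between partner and non-coding probe were themselves not tested.

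Coding genes at the small RNAs were measured in the same way. SLC47A1, a transporter gene that overlaps SNORA59B, rose by 2.15 with DMSO (SE 0.20, limma adjusted p = 4.7e-07) and fell by 1.34 on removal (SE 0.20, limma adjusted p = 6.2e-05), beside 1.60 and -0.45 for SNORA59B. The condensin gene NCAPD2, which overlaps SCARNA10, fell by 1.42 from D4 to D15 (limma adjusted p = 2.53e-05), where SCARNA10 differed by 0.84. On removal NCAPD2 rose by 1.53 (limma adjusted p = 1.59e-05), beside -1.60 for SCARNA10, which was not called in either comparison. MATR3, which overlaps SNORA74A, differed by -0.29 from D4 to D15 (limma adjusted p = 0.278) and EIF5, which overlaps SNORA28, by -0.46 (limma adjusted p = 0.402), beside 2.68 and 2.52 for the small RNAs. The 4 D4 arrays of both small RNAs had an SD over 1, and neither small RNA was called. Probe sequences were not used, so that signal from an overlapping transcript cannot be told apart from that of a small RNA.

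**Figure D4:**
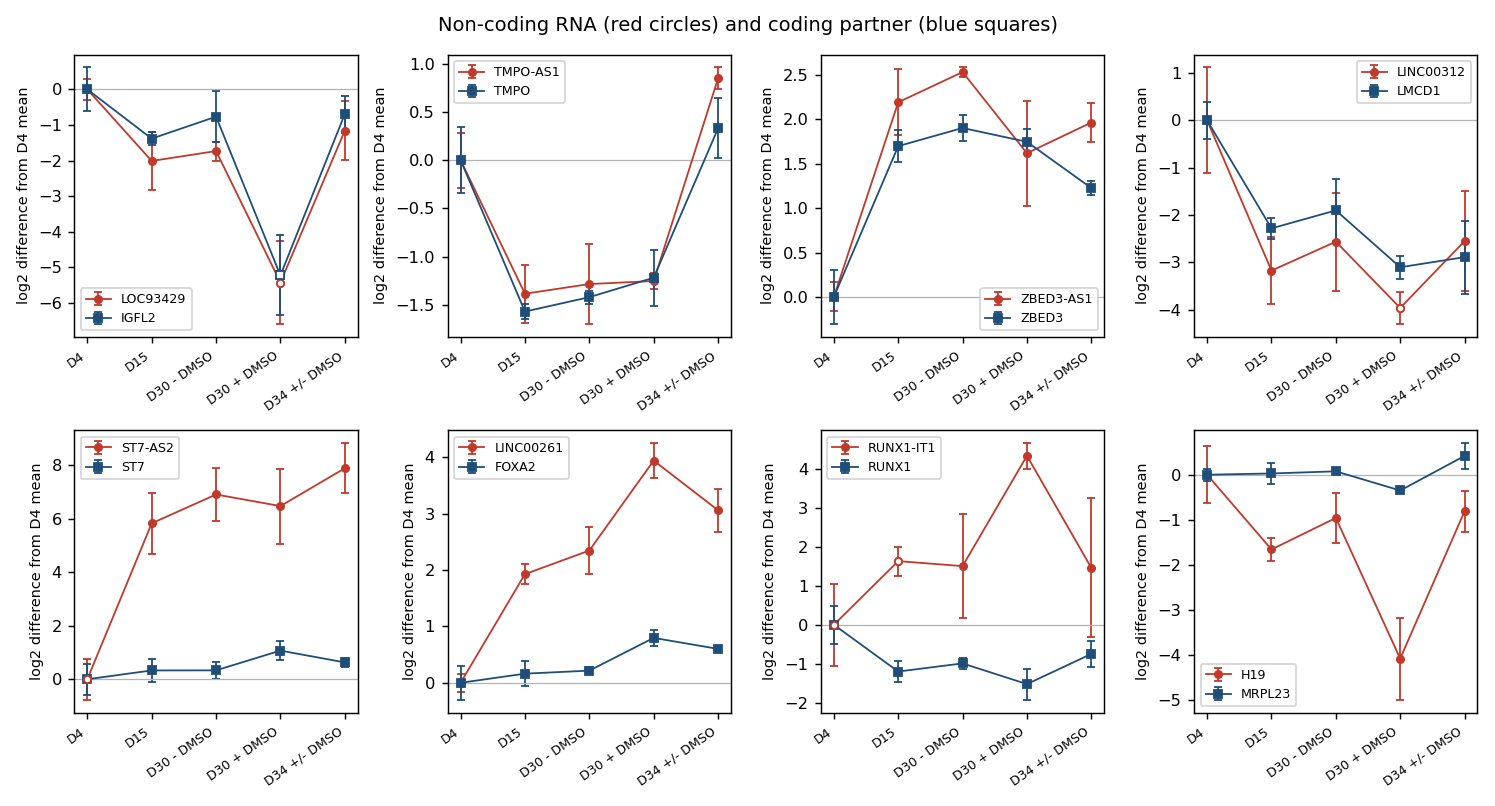
Condition means of 8 non-coding probes (red circles) and of a coding partner (blue squares), as log2 differences from the D4 mean of the same probe, with the SD over 4 arrays as bars and open symbols where no array was well above background, at D4 too for ST7-AS2 and RUNX1-IT1. The lines of LOC93429 and IGFL2 both reach their lowest point at D30 + DMSO, whereas H19 drops there and MRPL23 differs by -0.42 from D30 - DMSO.

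Coding genes matched by name to 11 of the pseudogenes (10 genes) were examined as well, from a list set up after the levels had been seen. SAA3P was set beside SAA1, a gene of the same family. Each coding gene was measured by its NM_ probe with the highest mean over all arrays. Of 9 coding genes that could be tested, 5 rose and 2 fell from D4 to D15, 0 rose and 1 fell with DMSO, and 3 rose and 0 fell on removal. Of all probes 9.26%, 5.82% and 6.97% were called in these comparisons, and nothing is read from the counts of a list set up in this way. PTTG1 fell by 2.86 from D4 to D15 (SE 0.32, limma adjusted p = 2.22e-06) and rose by 2.47 on removal (SE 0.32, limma adjusted p = 1.84e-05), beside -2.74 and 2.11 for PTTG3P. AURKA fell by 2.12 and rose by 2.73 in the same comparisons, beside -1.84 and 2.16 for AURKAP1. AQP7 rose by 5.49 from D4 to D15, beside 5.62 for AQP7P3. C3 rose by 1.95, beside 6.63 for C3P1.

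With DMSO, ABCC6 differed by -0.29 (limma adjusted p = 0.484), beside 1.93 for ABCC6P1, and LAMB2 by 0.22 (limma adjusted p = 0.469), beside 1.67 for LAMB2P1. KRT16 fell by 1.66 (limma adjusted p = 0.00105), and KRT16P2 was at least 1.59-fold lower, with 0 arrays well above background with DMSO. The similarity of pseudogene and coding transcript was not measured, and probe sequences were not used here. Signal from the coding transcript therefore cannot be told apart from the pseudogene's own.

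Against lists of known non-coding RNAs, the 73 held the liver-enriched genes FAM99A and HULC, whereas LINC01554, which passed the background criterion, had a range of 1.09. They held 1 of 3 imprinted genes (H19), while both MEG3 probes that passed had ranges of 0.27 and 0.55. Of 18 small nucleolar RNA host genes, such as GAS5 with a range of 0.48, 0 were included. Of 9 genes matched to the microRNA hosts 1 was (MIR503HG). The 9 hold DLEU1, matched only through a synonym and counted again among the widely studied RNAs. Of 15 widely studied long non-coding RNAs 4 were included (CYTOR, CASC15, LINC00261 and TMPO-AS1), while MALAT1 had a range of 1.17. The share over all 859 non-coding probes that passed was 8.50%.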

How the data were processed

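Total RNA of 20 HepaRG cultures was measured on one-color Agilent arrays. The authors deposited the Feature Extraction output of each array (version 10.7.3.1 in the submitters' processing notes, 10.7.1.1 in the file headers), in which the processed signal, an intensity, had the background subtracted and was not scaled between arrays. The authors also deposited a table of log2 values relative to a baseline per probe, with array medians from -0.204 to 0.171, used as an alternative only.

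Of 58717 non-control spots per array, those marked as outliers were left out, and the remaining spots of a probe were averaged. Signals were scaled to the 75th percentile of the array (407 to 766 before scaling), set to at least 1 and converted to log2. A probe counted as well above background when at least 0.5 of its spots did. Depth has no counterpart on arrays, and 4 arrays per condition limit the precision. All 5 conditions were fitted with limma 3.58.1 (R 4.3.3), which was tested on simulated data, and p-values were adjusted over all probes tested. The t-test at the same threshold, which the study's methods name, was an alternative. Other alternatives changed the background correction, scaling, floor, filter, size limit, threshold, slide or replicate block and the arrays used. Whether p-values measure more than the spread between these cultures depends on how independent the 4 experiments were.

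The 73 probes, the lists and the tests were chosen with earlier results of these data known. Named were FAM99A, FAM99B, the 5 probes with the largest range, the 5 with the largest difference in each direction for D15 against D4, for DMSO addition and for DMSO removal, and probes on the lists of known RNAs, with their coding partners; 1 probe is not reported here, although it stays in all counts. Other probes are named because they completed a group of calls, after their values were seen. Symbols, neighbours and sequences came from RefSeq (GRCh38.p14), matched by accession, and gene coordinates were not used across builds because the array design names another build.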

Additional observations from a re-analysis of the deposited data

Results flagged for a closer look

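In 15 of 134 groups of 4 arrays, taken over the 27 named probes, 1 array stood apart from the other 3 by Dixon's criterion, which chance meets in about 1 of 20 groups. Of the 15 arrays, 13 were replicate 4, which lay on slide 4 in every condition. The part of the slide in these values was not tested.

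At D30 - DMSO, replicate 4 read -1.51 for C3P1 (others -0.09 to 0.19), -3.11 for ST7-AS2 (others -1.18 to -1.10) and 2.69 for AQP7P3 (others 3.44 to 3.52). It read -0.20 for ABCC6P1 (others 0.77 to 0.91), -3.78 for LAMB2P1 (others -2.55 to -2.43) and 0.0836 for LINC00261 (others 0.87 to 0.96). For RUNX1-IT1 it read -8.17 (others -5.72 to -5.22) and was not well above background. All 7 lay below the other 3 arrays.

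At D34 +/- DMSO, replicate 4 read 1.64 for HULC (others 3.53 to 3.86) and -8.87 for RUNX1-IT1 (others -5.67 to -5.12). It lay above the other arrays for LOC93429, at -1.37 (others -3.11 to -2.95), and for H19, at 0.70 (others -0.22 to -0.18). AQP7P3 read 3.19 in replicate 4 of D30 + DMSO (others 3.71 to 3.76), and NR_002823 read -1.40 in replicate 4 of D15 (others -2.09 to -2.06).

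The remaining 2 were C3P1 in replicate 3 of D4, at -5.84 and well above background (others -9.14 to -9.07), and FAM99A in replicate 1 of D30 + DMSO, at -8.77 (others at the floor of -9.14, none of the 4 well above background).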

How the results depend on the processing

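The number of probes that met the criteria was 18 with normexp background correction, 20 when all 20 arrays had to be well above background, 181 without the background criterion, 137 at a difference of 1.5 and 33 at a difference of 3, against 73. It was 77 with the authors' table, 67 with quantile normalization and 56 with a floor of 10. Called from D4 to D15 were 25 with normexp and 24 with the methods' t-test, against 40. Over all probes these were 1571 and 1228, against 2458. With DMSO, 10 were called with normexp and 6 with the t-test, against 20. Over all probes these were 743 and 649, against 1543. On removal, 9 were called with normexp, 4 with the t-test and 33 at an adjusted p below 0.05, against 21. Over all probes these were 973, 546 and 2309, against 1848. From D15 to D30 - DMSO, 1 was called with a floor of 10 and 1 at an adjusted p below 0.05. Over all probes these were 5 and 10, against 1. For D34 +/- DMSO against D30 - DMSO, 1 was called with only the arrays of these conditions and 0 with the t-test, which gave 3 before adjustment, against 3. Over all probes 188 and 39 were called in these settings, against 396, and the unadjusted count has no such number beside it. Of the coding partners, 1 was called with DMSO under normexp, 1 under the t-test and 4 at an adjusted p below 0.05, against 2, and 1 on removal under the t-test, against 4. At an adjusted p below 0.05, 2017 of all probes were called with DMSO. The cause was not tested. Leaving out the arrays of slide 4, an alternative chosen after seeing the data, gave 92 probes that met the criteria (65 of the 73 among them), 8 highest at D15 against 4, 12 called with DMSO and 13 on removal. Over all probes 1029 and 1291 were called without these arrays, with DMSO and on removal.

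Leaving out 1 array at a time gave 70 to 87 probes that met the criteria, with 68 to 73 of the 73 among them. The number highest at D15 was 3 to 8 (8 without D15 replicate 4), and calls were 38 to 43 from D4 to D15, 0 to 1 from D15 to D30 - DMSO (1 without D15 replicate 4), 15 to 21 with DMSO, 16 to 22 on removal and 3 to 3 for D34 +/- DMSO against D30 - DMSO. Without D30 + DMSO replicate 1, 3 were called higher and 15 lower with DMSO, against 8 and 12. Those called higher were 4 without D30 + DMSO replicate 2 or D30 - DMSO replicate 4, and 5 without D30 - DMSO replicate 1, 2 or 3. With the slide as a block 12 were called higher and 11 lower with DMSO, beside 1912 over all probes in either direction. Without the single arrays just named, 1336 to 1431 of all probes were called with DMSO, against 1543. Arrays with the same replicate number deviated together in 28 of 40 pairs (r above 0.1, from -0.32 to 0.80, median 0.27). Those with other numbers did so in 43 of 120 pairs (median -0.16). The main fit did not pair the arrays by number, and a replicate block was used as an alternative. With the replicate block 49, 0, 24, 27 and 3 probes were called in the 5 comparisons, and 9, 2 and 4 partners from D4 to D15, with DMSO and on removal, and these totals moved by less than 1.5 times, while the probes called lower on removal went from 5 to 9. Over all probes 2753, 1, 1815, 2102 and 499 were called with the replicate block, against 2458, 1, 1543, 1848 and 396. The differences of named probes kept their sign under 4 other scalings and without each array, and 38 of 120 moved by more than the spread between arrays under the scalings. Signal over background limits the 23 probes with a condition not measured above background, for which only bounds hold in comparisons with that condition.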
